A study of Mus musculus with 148 samples.

Results

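Ccl6 and Ccl9 are neighbouring genes of the mouse CC chemokine family. They were taken by name from the gene rows of the deposited single-cell tables, 2 of 52634 rows in all. For each gene the counts of unique molecular identifiers (UMIs, 1 for each captured transcript) were summed over the cells of 1 mouse, 1 tissue and 1 cell label, and a sum of at least 10 cells was expressed as counts per 1000000 UMIs of that sum (CPM). The myeloid labels gave 285 such sums over 11256 cells. In all 23425 immune cells, 76808 UMIs of Ccl6 and 16404 of Ccl9 were counted.

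The study followed lung metastasis of breast cancer in time and space. Cells of the EO771 mouse mammary carcinoma line carrying tdTomato were placed in the mammary gland of female C57BL/6 mice that carry photoactivatable GFP (PA-GFP), at 8 weeks of age, and the primary tumor was resected 3 weeks later. Spatial niches of the lung were lit with a laser, so that GFP-positive host cells could be sorted from a metastasis core or from its invasive margin. Immune cells were sorted singly, as CD31-negative CD45-positive cells or, after photoactivation, as CD31-negative GFP-positive cells, and their transcripts were read at the 3′ end. All 27 mice were PA-GFP C57BL/6. The control lungs, labelled Normal, came from 3 mice. The premetastatic lungs (Pre-MET, 3 mice) came from mice still bearing the primary tumor, and the Relapse-free lungs (6 mice) from mice that had shown no metastasis after resection. Lungs with metastases gave 14 samples of distal normal tissue, 13 of lesion-bearing tissue (MET), 13 of the metastasis core and 7 of the invasive margin. Primary tumors came from 4 mice. All tumor-bearing groups rest on this 1 injected line, and several tissues were taken from the same mouse. The Normal plates were the only ones of their sequencing batch, so that the control state and that batch cannot be told apart. Primary tumor mice 9, 10 and 38 were likewise alone in a batch. Some plates of Relapse-free mice 6 and 7 were sorted on photoactivated cells, and others on CD45-positive cells negative for photoactivation. The plain CD31-negative CD45-positive gate gave 4 plates of mouse 6 and 1 of mouse 7.

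CC chemokines are small secreted proteins that draw leukocytes along a gradient through G protein-coupled receptors. The products of Ccl6 and Ccl9 attract monocytes and other myeloid cells mainly through CCR1, and both are made chiefly by myeloid cells. They belong to a subgroup of rodent CC chemokines with an extended amino-terminal part, which proteases can trim to a more active form. In the lung, Ccl6 is a known transcript of alveolar macrophages.

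Both genes lie on the minus strand of chromosome 11 (mm10, GENCODE annotation), Ccl9 at chr11:83572919-83578636 and Ccl6 at chr11:83587882-83593087, with 9245 bases between them. An antisense gene, E230016K23Rik, overlaps Ccl6, and reads of the pair could be told apart only by strand. The methods of the study merged exons that overlap on 1 strand and say no more of strand in counting. Ccl5 lies 42400 bases to the lower side of Ccl9 and Ccl3 54756 bases to the higher side of Ccl6. The 100 bases before each start site are shown because the neighbours share stretches there, although their levels differed between cell types. They are RefSeq sequences of GRCm38.p6, read 5′ to 3′ on the minus strand. Capitals mark the stretches of at least 8 bases that the windows before both starts have in common.
Ccl6, chr11:83593088-83593187: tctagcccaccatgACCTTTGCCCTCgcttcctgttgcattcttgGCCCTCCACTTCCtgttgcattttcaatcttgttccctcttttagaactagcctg
Ccl9, chr11:83578637-83578736: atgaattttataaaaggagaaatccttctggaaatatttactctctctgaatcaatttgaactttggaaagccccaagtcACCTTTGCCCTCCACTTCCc
In Ccl9 the shared stretch was 1 run of 19 bases, from 20 to 2 bases before the start. In Ccl6 its parts stood separately, as 12 bases from 86 to 75 before the start and 13 bases from 55 to 43. The Ccl6 window also held 2 copies of a 14-base repeat, CTTCCTGTTGCATT, which begin 73 and 47 bases before the start.

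Among motifs searched on both strands of the 250 bases before the start, GGAAGT, letters found in ETS-family sites, occurred 48 bases before the Ccl6 start and 7 bases before the Ccl9 start. The same letters stood in 19.7% of 32851 promoters. TGANTCA, the letters of AP-1 sites, occurred in Ccl9 alone, 53 bases before its start, against 6.75% of promoters. TTGCNNAA, letters found in C/EBP sites, was in neither window and in 9.56% of promoters. A match of letters is a description of the window only. Reads of the 2 genes were separable, since the longest run of identical bases between their main transcripts was 25 bases, and 9 bases in the last 500.

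The authors' cell labels were used as given and were checked against marker genes. The authors describe Mac Cd9 as alveolar macrophages, Mac Cd81 and Mac Isg20 as tumor-associated macrophages, and Mac Gpnmb as a regulatory population with Trem2. Alveolar macrophage markers summed to 13735 CPM in Mac Cd9, with none of 5 at 0, and to at most 3262 CPM in the other myeloid labels named here. Macrophage markers summed to 21965 CPM in Mac Cd81 and 19620 in Mac Gpnmb but only 4214 in Mac Isg20. Neutrophil markers summed to 98660 to 306993 CPM in Neut Ptgs2, Neut Ifit3, Neut Lcn2 and Neut Camp, and to 22058 CPM in Neut PMN-MDSC. Some marker sums were less clear. Mon Ace had macrophage markers at 2801 CPM and monocyte markers at 2399, and cDC1 had cDC2 markers at 4585 CPM and its own at 1029. The cDC2 list includes Cd74 and is not specific, since it summed to 9036 CPM in B cells and 10931 in Mon MHC-II. Median depth per cell ran from 812 to 1201 UMIs in the lung groups and was 3525 in the primary tumor. No well barcode was shared between plates. Labels were made by the authors from the transcriptomes of these same cells, so that differences between labels are described below and not tested.

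With all tissues together, Ccl6 had its highest means in alveolar macrophages and most neutrophil labels. Mac Cd9 had 8953 ± 2840 CPM (SD, n = 11 sums), with a lowest sum of 4420, a median of 8575 and a highest of 14592. Neut Lcn2, neutrophils named for lipocalin-2, had 5775 ± 2198 CPM (n = 24), and Neut Ifit3, with interferon-response genes, had 4555 ± 1374 CPM (n = 16). The gap between Mac Cd9 and Neut Lcn2 was larger than the SD of either label, and no other gap between neighbours in the order was, down to dendritic cells. Next came Neut PMN-MDSC at 4157 ± 2647 CPM (n = 5), Neut Ptgs2 at 3603 ± 1566 (n = 29) and Mac Isg20 at 3469 ± 1728 (n = 15). Monocytes followed with overlapping ranges. Mon Thbs1 had 2807 ± 2159 CPM (n = 25), Mon Fn1 2487 ± 1527 (n = 54), Mon MHC-II 1898 ± 1157 (n = 23) and Mon Ace, named for angiotensin-converting enzyme, 1600 ± 586 (n = 32). Mac Gpnmb lay among them at 2666 ± 1844 CPM (n = 14). With all tissues together, Mac Cd81 was the lowest macrophage label at 1257 ± 971 (n = 9). Its primary tumor sums were 405 to 1136 CPM. In the core alone it was not the lowest, with 1479 to 3287 CPM against 763 to 3200 in Mac Gpnmb. In primary tumor mouse 38, Neut Ptgs2 had 428 CPM, from 6 Ccl6 UMIs in 12 cells, against 1536 CPM in Mon Fn1. Ccl6 was found in 17.2% of 29 Neut Ptgs2 cells of primary tumors, against 59.7% of that label in all tissues.

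Dendritic cells had little Ccl6, with 465.5 ± 382 CPM in cDC2 (n = 16) and 407 ± 108 in cDC1 (n = 5). Neut Camp, whose name gene encodes a granule peptide of immature neutrophils, had 189 ± 123 CPM (n = 4). This was below the highest lymphocyte label, T CD8 Gzma, whose mean was 248 CPM of Ccl6 and 43.6 of Ccl9. Lymphocyte levels mark the background that these plates allow, but this one is a high one. The next lymphocyte label, T CD8 Dapl1, had 87.8 CPM of Ccl6, less than Neut Camp. A single T CD8 Gzma cell of 19595 UMIs held 41.5% of that label's Ccl6 UMIs and 28.3% of its Ccl9 UMIs. Over the 63 samples, the lymphocytes of a sample held a median of 1.90% of the Ccl6 CPM of its myeloid cells and 1.87% of the Ccl9 CPM, with highest values of 9.15% and 54.6%.

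Ccl9 followed another order. Mac Isg20 was highest at 1416 ± 545 CPM (n = 15), with sums from 586 to 2443. Mon Thbs1 had 978 ± 566 CPM and Mon Fn1 795 ± 345, and these 3 labels did not differ beyond their SD from one neighbour to the next. Mac Cd81 had 668 ± 382 CPM, Mon MHC-II 584 ± 313, Mac Gpnmb 514 ± 348 and Mon Ace 414 ± 185, again with neighbours within their spread. Neut PMN-MDSC had 494 ± 937 CPM, most of it from 1 of 5 sums. The other neutrophil labels had far less. Neut Ifit3 had 73.3 ± 94.0 CPM (n = 16), above the highest lymphocyte mean by less than its SD. Neut Ptgs2 had 34.0 ± 34.6 CPM, with no Ccl9 UMI in 10 of 29 sums, and Neut Lcn2 had 27.7 ± 31.5 CPM, with none in 11 of 24. With the UMIs of all neutrophils pooled, Neut PMN-MDSC included, Ccl9 was 67.8 CPM (exact Poisson 95% interval 60.9 to 75.4, counting error only), against 20.1 in T, 27.8 in NK and 12.2 in B cells. Neut PMN-MDSC, with 139 of the 3972 cells, gave 109 of the 347 Ccl9 UMIs in that pool, so that the other neutrophils lay lower. Alveolar macrophages, the highest in Ccl6, had 127 ± 136 CPM of Ccl9 (n = 11).

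**Figure D1:**
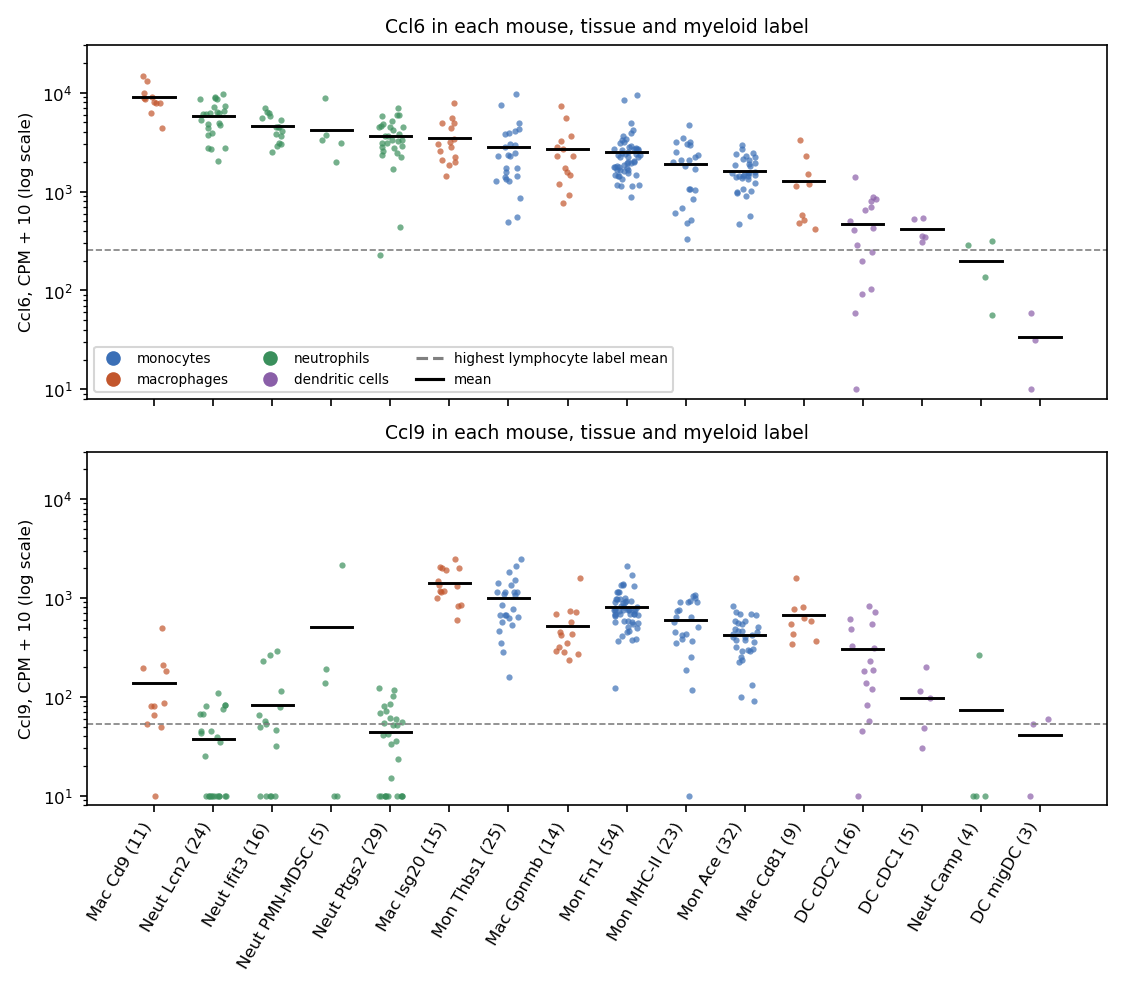
Ccl6 and Ccl9 in every sum, by cell label. Each point is the CPM + 10 (log axis) of 1 sum of at least 10 cells of a mouse and tissue, bars are the mean of a label, and the dashed line is the highest mean of a lymphocyte label (248 CPM for Ccl6, 43.6 for Ccl9). Mac Cd9, Neut Lcn2 and Neut Ifit3 have the highest means for Ccl6, while the Ccl9 means of Neut Lcn2 (27.7 CPM) and Neut Ptgs2 (34.0 CPM) lie below the line, with some single sums above it.

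The contrast between the genes held within single samples. In 28 samples with both labels, Ccl9 was higher in Mon Fn1 than in Neut Ptgs2 in 28. Ccl6 was higher in Mon Fn1 in 4 of the same 28. Against Neut Lcn2, Mon Fn1 had more Ccl9 in 22 of 22 samples and more Ccl6 in 0 of 22. Against the alveolar macrophages of the same sample, Mon Fn1 had more Ccl9 in 10 of 10 samples and more Ccl6 in 0 of 10. Within the macrophages of the lesions, Mac Isg20 exceeded Mac Gpnmb in Ccl9 in 9 of 9 samples, by 1.13 ± 0.45 on the log2 scale, and in Ccl6 in 7 of 9.

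The number of Ccl9 UMIs for each 100 of Ccl6 was therefore used as a second view, in which transcript length cancels between labels. It was pooled over the sums of a label, so that deep sums weigh most. It was 0.925 in Neut Lcn2, 0.918 in Neut Ptgs2, 1.28 in Neut Ifit3 and 1.35 in Mac Cd9. In Mac Gpnmb it was 16.9 and in Mon Ace 28.0. It was 35.6 in Mon Fn1, 35.7 in Mon Thbs1, 42.7 in Mac Isg20, 47.7 in Mon MHC-II and 64.5 in Mac Cd81. The order within this last group depended on the pooling. The mean log2 ratio of Ccl9 to Ccl6 per sum (10 CPM added to each) was -1.75 in Mon MHC-II and -1.59 in Mon Fn1. It was -1.41 in Mon Thbs1, -1.24 in Mac Isg20 and -0.71 in Mac Cd81. Neut Lcn2, Neut Ptgs2, Neut Ifit3 and alveolar macrophages thus had almost no Ccl9 beside Ccl6, while monocytes and the remaining macrophages had both genes. Neut PMN-MDSC, at 9.26, lay between them. Neut Camp had 61.5, from only 16 Ccl9 and 26 Ccl6 UMIs.

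**Figure D2:**
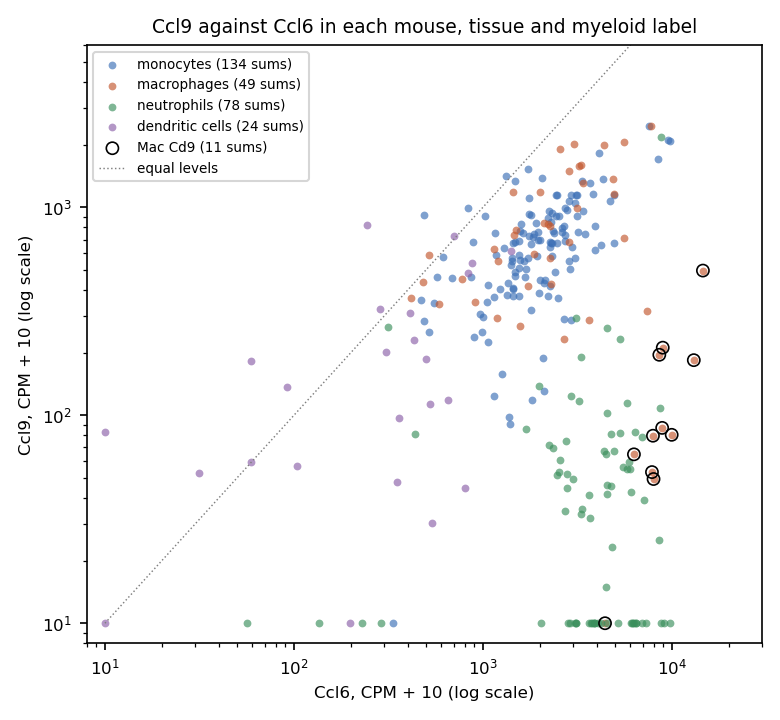
Ccl9 against Ccl6 in every sum of a mouse, tissue and myeloid label, as CPM + 10 with both axes logarithmic. Most neutrophil and Mac Cd9 sums lie to the right and low. Pooled over its sums, each of Neut Lcn2, Neut Ptgs2, Neut Ifit3 and Mac Cd9 had 0.918 to 1.35 Ccl9 UMIs for each 100 of Ccl6. The monocyte labels had 28.0 to 47.7.

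In single cells, Ccl6 was found in 93.2% of 439 Mac Cd9 cells (median depth 1645 UMIs), in 77.8% of 1604 Neut Lcn2 cells (1076 UMIs) and in 74.0% of 3053 Mon Fn1 cells (1503 UMIs). With every cell thinned to 500 UMIs, the expected shares were 84.9%, 68.1% and 51.9%. B cells, which should lack the gene, gave 8.53% at a median of 1001 UMIs and 4.00% after thinning. Ccl9 was found in 51.7% of Mon Thbs1, 50.4% of Mac Isg20 and 48.3% of Mon Fn1 cells, or 30.3%, 32.1% and 25.5% after thinning. It was found in 3.68% of Neut Lcn2 and 3.28% of Neut Ptgs2 cells, against 1.71% of B cells. T CD8 Gzma cells gave 6.40%, and the other lymphocyte labels 0.793% to 2.53%, so that these neutrophils lay below 1 lymphocyte label and above the rest. Both genes were found together in 38.6% of Mon Fn1 and 42.1% of Mac Isg20 cells, and in 3.24% of Neut Lcn2 cells.

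UMIs were unevenly spread over the cells of a label. The 10% of Mac Cd9 cells with the most Ccl6 held 47.3% of that label's Ccl6 UMIs, and the highest cell held 299. In Mon Fn1 the top 10% held 48.3% of Ccl6 and 55.1% of Ccl9 UMIs. Mac Gpnmb was more uneven, with 76.9% of Ccl6 UMIs in its top 10%. These shares were not corrected for depth, which also varied between cells.

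The genes whose mean log2(CPM + 1) over 26 labels was most like that of Ccl6, among 9040 genes, were Tlr2 (r = 0.93), Tnfrsf1a (0.93), Rnf149 (0.93), Alas1 (0.91) and Tlr4 (0.91). Tlr2 and Tlr4 encode pattern-recognition receptors and Tnfrsf1a a receptor for tumor necrosis factor. For Ccl9 they were Cd68 (0.94), the lysosomal glycoprotein of macrophages, Fcgr1 (0.94), the high-affinity Fc receptor of monocytes and macrophages, Dpep2 (0.94), AC238811.2 (0.93) and Pid1 (0.93). Ccl6 and Ccl9 themselves had r = 0.70, which placed Ccl9 at rank 292 for Ccl6 and Ccl6 at rank 428 for Ccl9. The points are labels made from the same samples, and the values are descriptions.

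Ccr1, the receptor gene for both products, had its highest label means in neutrophils, at 1096 CPM in Neut PMN-MDSC, 1065 in Neut Ptgs2, 856 in Neut Ifit3 and 814 in Neut Lcn2. It was 435 CPM in Neut Camp, 404 in Mon Thbs1, 363 in Mac Isg20, 189 in Mac Cd9, 163 in Mon Fn1 and 126 in Mon MHC-II. The 4 labels with the most Ccr1 were also the 4 that followed Mac Cd9 in Ccl6, but Neut Camp, the fifth in Ccr1, was low in Ccl6.

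Which cells supplied the transcripts depended on the tissue. In Normal lungs, macrophages held 66.9% of all immune Ccl6 UMIs (59.6% to 74.4% over 3 mice), and Mac Cd9 alone 66.6%, although macrophages made up 8.31 ± 1.44% of the cells. In Pre-MET lungs, monocytes held 73.8% of Ccl6 UMIs (71.1% to 76.8%) and macrophages 5.55%. The ranges of the Normal and Pre-MET mice did not overlap for either lineage. In Relapse-free lungs macrophages held 30.3% of Ccl6 UMIs, from 0.381% to 65.0% over 6 mice, which overlapped both, and monocytes 25.8% to 49.6%, below all Pre-MET mice. In distal normal tissue monocytes held 49.3%, neutrophils 29.6% and macrophages 19.2%, with wide ranges over the 14 samples, in which the neutrophil share ran from 0.45% to 80.7%. In the invasive margin macrophages held 39.0% and in the core 33.2%, and in primary tumors monocytes held 66.6%.

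Ccl9 came mostly from monocytes in every tissue. Their mean share was lowest in the core at 53.6% and highest in Pre-MET lungs at 95.3%, where Mon Fn1 alone held 77.1%. Macrophages held 38.8% of Ccl9 UMIs in the core, 35.6% in the margin, 29.1% in primary tumors and 0.226% in Pre-MET lungs. Neutrophils never held more than 3.27% on average.

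**Figure D3:**
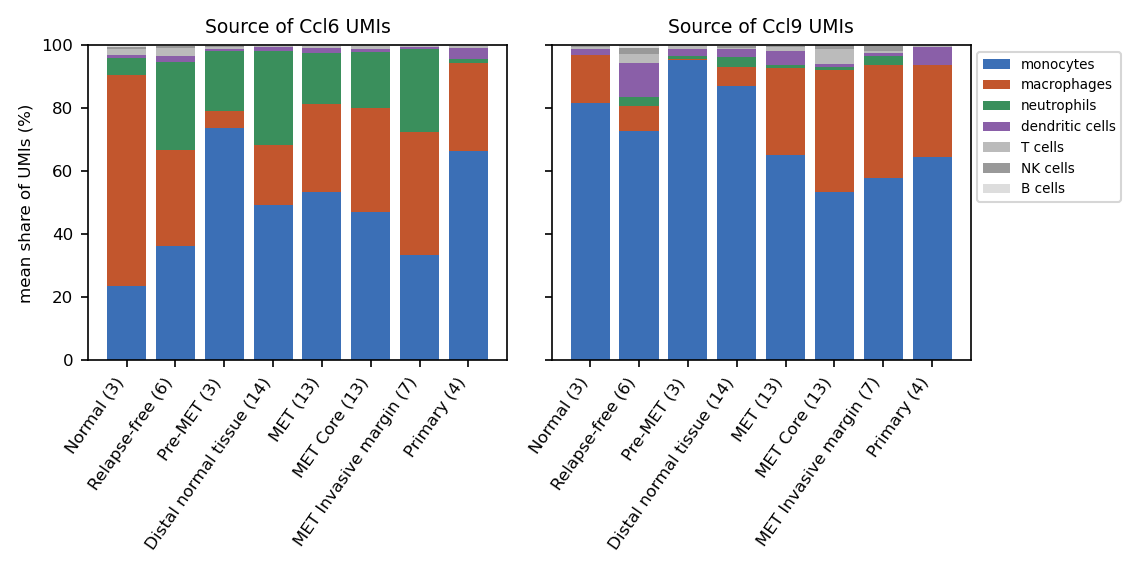
Share of the Ccl6 and Ccl9 UMIs of all immune cells by lineage, in percent, as the mean over the samples of a tissue (stacked bars). For Ccl6 the largest share passes from macrophages in Normal lungs (66.9%) to monocytes in Pre-MET lungs (73.8%), and for Ccl9 monocytes hold the largest share in all 8 tissues.

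Premetastatic lungs were compared with Normal lungs to ask what a distant tumor changes before lesions appear. Within each label, neither gene passed edgeR's quasi-likelihood test with Benjamini-Hochberg adjustment over all genes tested (called below an adjusted p of 0.05). In Mon Fn1, Ccl6 was 1731, 2326 and 2416 CPM in the 3 Pre-MET mice and 4191, 3372 and 2001 in the 3 Normal mice, and the groups overlapped. The log2 fold change was -0.59 (SE 0.26, adjusted p = 0.343, edgeR), where 0.336% of genes were called, and -0.23 without Normal mouse 1. Ccl9 in Mon Fn1 was 563, 757 and 898 CPM against 646, 954 and 439, a log2 fold change of 0.06 (SE 0.31). In Mon Ace the log2 fold changes were -0.28 for Ccl6 and 0.06 for Ccl9 (0.371% of genes called), and in Mon MHC-II -0.09 and -0.39 (0% called). In Mon MHC-II 43 of 496 genes had an unadjusted p under 0.05 by edgeR, and DESeq2 called 8 higher and 2 lower.

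The largest difference within a label in this comparison was that of Ccl6 in Neut Ptgs2, neutrophils with high Ptgs2. The Pre-MET sums were 218, 3099 and 2557 CPM and the Normal sums 6982, 4520 and 3092. The 218 CPM sum stands apart and rests on 2 Ccl6 UMIs in 13 cells of mouse 10. The log2 fold change was -1.33 (SE 0.58, adjusted p = 0.691, edgeR, with 1.51% of genes called) and -0.81 without that mouse. Ccl9 did not pass the low-count filter in this label.

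Against Relapse-free lungs neither gene passed the test in any label. By edgeR no gene was called in Mon Ace (0% of genes), Mon MHC-II (0%) or Neut Ptgs2 (0%), and 0.0427% were called in Mon Fn1. Unadjusted p was under 0.05 for 120, 66 and 53 genes in the first 3 of these, and DESeq2 called 1 gene higher and 2 lower in Mon MHC-II and 0 in the other two. Ccl6 in Neut Ptgs2 was 3288 to 4548 CPM, with a median of 3852, in 5 Relapse-free mice, all above the 3 Pre-MET sums. The log2 fold change was -1.08 (SE 0.45, adjusted p = 0.413, edgeR), and -0.76 without Pre-MET mouse 10. From the plates of the 1 batch that gave at least 10 such cells in both tissues, Pre-MET mouse 9 had 2557 CPM and Relapse-free mice 6 and 7 had 4144 and 3750 CPM. Ccl6 in Mon Fn1 differed by -0.31 (SE 0.26) and Ccl9 by 0.17 (SE 0.30), or by -0.35 to -0.12 and 0.05 to 0.39 without 1 Pre-MET mouse at a time.

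Summed over all immune cells, the Ccl9 level of every Pre-MET lung lay above those of Normal and Relapse-free lungs, without passing the adjusted test. Such totals mix how many cells of each label a tissue holds with the level in each cell, and fewer cells cannot be told apart from less RNA per cell in the total alone. The 3 Pre-MET lungs had 436, 483 and 511 CPM of Ccl9, the 3 Normal lungs 91.3, 140 and 221 CPM, and the 6 Relapse-free lungs 140 to 296 CPM with a median of 215. The Pre-MET values lay above all 9 others. The log2 difference was 1.74 against Normal (exact permutation test, two-sided, p = 0.1, the smallest that 3 against 3 allows). Against Relapse-free it was 1.15 (exact permutation p = 0.0238), and no split of 3 and 6 is more extreme. Over the 10 tests of this kind the adjusted values were 0.256 and 0.238, so neither passed. With so few mice, not passing says little about the size of the difference. In 2 batches plates of both tissues were sequenced together. From the plates of the first alone, mean Ccl9 was 460 CPM in 3 Pre-MET and 157 CPM in 2 Relapse-free lungs, and from those of the second 473 CPM in 2 and 206 CPM in 2. The same mice recur in both batches, and the Relapse-free mice in them were 6 and 7, with plates of several sort gates. Monocytes made up 54.0 ± 9.01% of Pre-MET cells, 17.9 ± 1.08% of Normal and 18.7 ± 1.85% of Relapse-free cells. Ccl6 totals were 1840 ± 97.3 CPM in Pre-MET, 2146 ± 632 in Normal and 1708 ± 534 in Relapse-free lungs (SD, n = 3, 3 and 6). Against Normal the log2 difference of Ccl6 was -0.17, but 0.49 from the mean of each cell's own CPM.

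Lesion-bearing tissue was compared with distal normal tissue of metastatic lungs to ask what changes at the lesion. In Mon Fn1 (13 sums each), Ccl6 ran from 876 to 3676 CPM with a median of 2211 in MET and from 1131 to 3327 with a median of 1953 in distal tissue. The groups overlapped nearly in full, and the log2 fold changes were -0.06 for Ccl6 (SE 0.20) and 0.00 for Ccl9 (SE 0.21), with 0% of genes called. The largest difference in size was that of Ccl6 in Mon Ace, at a log2 fold change of -0.61 (SE 0.27, adjusted p = 0.982, edgeR, 0% called). Its 7 MET sums ran from 462 to 2256 CPM and its 8 distal sums from 1416 to 2924. In neutrophils Ccl6 differed by -0.12 in Neut Ifit3 (0% called), -0.17 in Neut Lcn2 (0% called) and -0.26 in Neut Ptgs2 (0% called). The sign in Neut Lcn2 turned when each of the 4 mice with both tissues was a replicate block. It also turned with a batch term and with at least 5 cells per sum, and that in Neut Ifit3 with a batch term. In the 5 labels of this comparison DESeq2 also called 0 genes, and 5 to 22 genes had an unadjusted p under 0.05 by edgeR. Over all immune cells, Ccl9 was 535 ± 200 CPM in MET and 385 ± 161 in distal tissue, a log2 difference of 0.48 (permutation p = 0.102, adjusted 0.256). From the plates of each of the 3 batches holding both tissues, that difference was 0.27, 0.55 and 0.77.

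**Figure D4:**
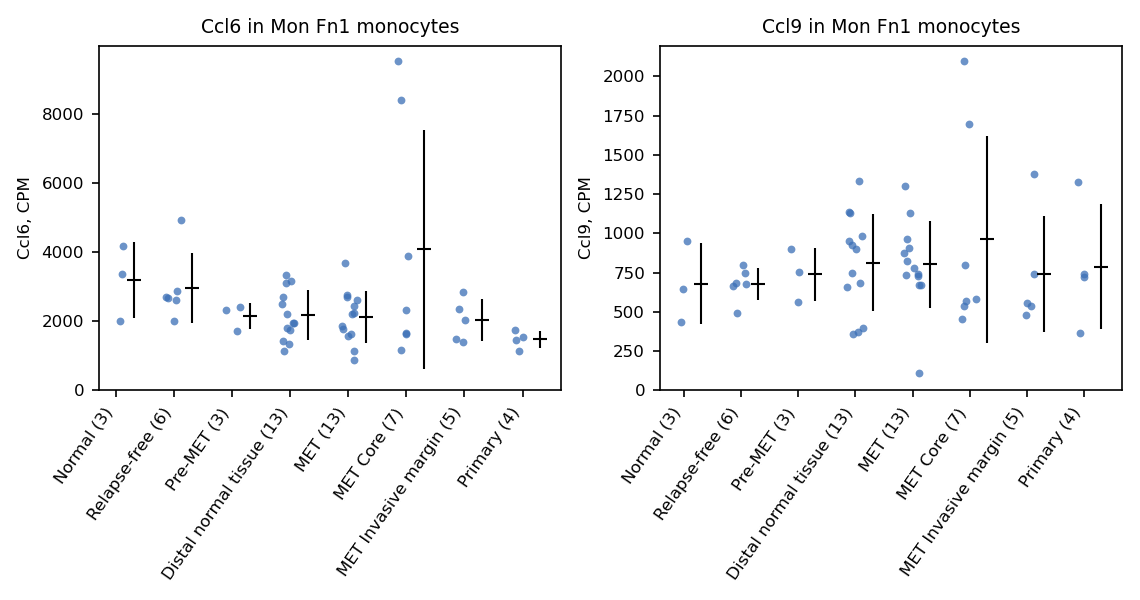
Ccl6 and Ccl9 in Mon Fn1 monocytes, a label with sums in all 8 tissues. Points are CPM of single sums, with the mean and SD of each tissue beside them. Most tissues overlap, and 2 core sums, of mice 23 and 28, stand apart at 8397 and 9528 CPM of Ccl6.

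The metastasis core was compared with the invasive margin. The labels of the margin differ among mice: the photoactivation target of mouse 17 reads NON-MET, and the area of mice 31, 32, 33 and 36 reads MET, while their status label, used here, reads invasive margin. In Mon Fn1, core Ccl6 ran from 1159 to 9528 CPM with a median of 2317 (n = 7), and the 5 margin sums were 2365, 1478, 2839, 1414 and 2048 CPM. Core mice 23 and 28 stood apart at 8397 and 9528 CPM, while the 5 other core sums lay between 1159 and 3894. The log2 fold change was 0.96 (SE 0.46, adjusted p = 0.928, edgeR, 0% called), and 0.35 (SE 0.35) over the 3 mice with both tissues when each mouse was a replicate block. Without core mouse 23 it was 0.71 and without core mouse 28 it was 0.57, alternatives chosen after seeing the data. By batch the Ccl6 value was 1.73 in the batch of mice 23 and 28, -0.53 and -0.03 in the others. Mice 23 and 28 were also the highest in Mon Thbs1 of the core, at 9781 and 7535 CPM against 1255 to 4116 in 6 other mice. Both mice belong to 1 sequencing batch, which also held core mouse 24 at 3894 CPM in Mon Fn1. In Mac Isg20 of the core the highest sum was another mouse, 30, at 7775 CPM.

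In Mac Gpnmb the fold changes of the 2 genes between core and margin had opposite signs, and neither passed the test. Ccl6 was 3200, 1560 and 763 CPM in 3 core sums and 7341, 903, 2671 and 3628 in 4 margin sums. Ccl9 was 1569, 260 and 442 CPM in the core and 307, 339, 224 and 276 in the margin. Both groups overlapped in both genes. The log2 fold changes were -1.05 (SE 0.71) for Ccl6 and 1.31 (SE 0.61) for Ccl9, both with an adjusted p of 0.997 (edgeR, 0% called). Leaving out 1 sum at a time gave -1.67 to -0.38 for Ccl6, with -0.38 without margin mouse 17 and -1.67 without core mouse 30, and 0.37 to 1.59 for Ccl9, with 0.37 without core mouse 30. In the core and margin fits of Mac Gpnmb and Mon Fn1, DESeq2 called 0 genes, and 19 and 26 genes had an unadjusted p under 0.05 by edgeR. Over all immune cells, core and margin differed by -0.08 in Ccl6 and 0.29 in Ccl9 on the log2 scale (exact permutation p = 0.869 and 0.608). The sign differed between batches, with values from -1.12 to 0.29 for Ccl6 and from -1.08 to 0.75 for Ccl9.

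The primary tumor was compared with the metastasis core, as the sites where the same tumor line grows. Ccl6 was lower in the primary tumor in Mac Cd81 macrophages, and this was the 1 call among the 33 tests of the 2 genes over 19 label-wise fits. The primary tumor sums were 473, 574, 405 and 1136 CPM and the core sums 3287, 1479 and 2254, with no overlap. The log2 fold change was -1.44 (SE 0.40, adjusted p = 0.034, edgeR), and 8.25% of 1563 genes were called in that fit. Leaving out 1 sum at a time ended the call in 6 of 7 cases, with log2 fold changes from -1.93 to -0.97 and adjusted p from 0.011 to 0.267, and with no filter on low counts the adjusted p was 0.589. The 3 core sums held 43 cells and shared no sequencing batch with the primary tumor sums, so that tissue and batch cannot be told apart in this label. Summed macrophage markers were 6035 to 7254 CPM in the core and 21362 to 26782 in the primary tumor in this label, with 1 of 6 markers at 0 in the core. Neutrophil markers were 475 to 1020 CPM and 31.9 to 150 CPM, with 3 of 6 at 0 in each. Their part in the difference was not tested. Median depth of Mac Cd81 cells was 1323 UMIs in the core and 8661 in the primary tumor, and its part was not tested either. Ccl9 in Mac Cd81 did not overlap either, with 356, 622, 426 and 333 CPM in the primary tumor and 1587, 766 and 800 in the core.

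Ccl6 had negative log2 fold changes in the 3 other labels as well, without passing the test in the main fits. In Mon Fn1 the primary sums were 1149 to 1744 CPM against 1159 to 9528 in the core, a log2 fold change of -1.40 (SE 0.49, adjusted p = 0.224, edgeR, 0.59% called), and -1.02 without core mouse 28. With cells of at least 1000 UMIs the Mon Fn1 value was larger in size and passed. In Mon Thbs1 the main log2 fold change was -1.39 (SE 0.53, adjusted p = 0.211, edgeR, 1.24% called). In cDC2 it was -1.26 (SE 0.60, adjusted p = 0.421, edgeR, 1.15% called). Without primary tumor mouse 8, whose cDC2 sum of 421 CPM stood above 49.4 to 93.7 in the other 3, the cDC2 value was -2.25 and passed (adjusted p = 0.040, edgeR). Leaving out other sums in turn brought it as near 0 as -0.60, with adjusted p up to 0.760 (edgeR). Ccl9 differed by -0.85 in Mac Cd81 (SE 0.39, adjusted p = 0.187, edgeR), -0.25 in Mon Fn1, -0.95 in Mon Thbs1 and -0.99 in cDC2. Leaving out 1 sum at a time, Ccl9 in Mac Cd81 ran from -1.15 to -0.36, the latter without core mouse 24. Leaving out 1 primary tumor at a time, Ccl9 in Mon Fn1 ran from -0.65 without mouse 10 to -0.04 without mouse 38, and it was 0.13 without core mouse 28. The same core and primary mice enter several labels, so that the labels are not independent. In the 1 batch shared by both tissues, Mon Thbs1 went the other way, with 2929 CPM of Ccl6 in primary tumor mouse 8 and 1319 CPM in core mouse 36. Mon MHC-II of the same 2 mice had 603 and 1047 CPM. Over all immune cells of that batch, Ccl6 was 881 CPM in the primary tumor and 1650 CPM as the mean of 2 cores. With batch as a term the log2 fold change of Ccl6 in Mon Thbs1 was 1.06 (SE 1.03).

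**Figure D5:**
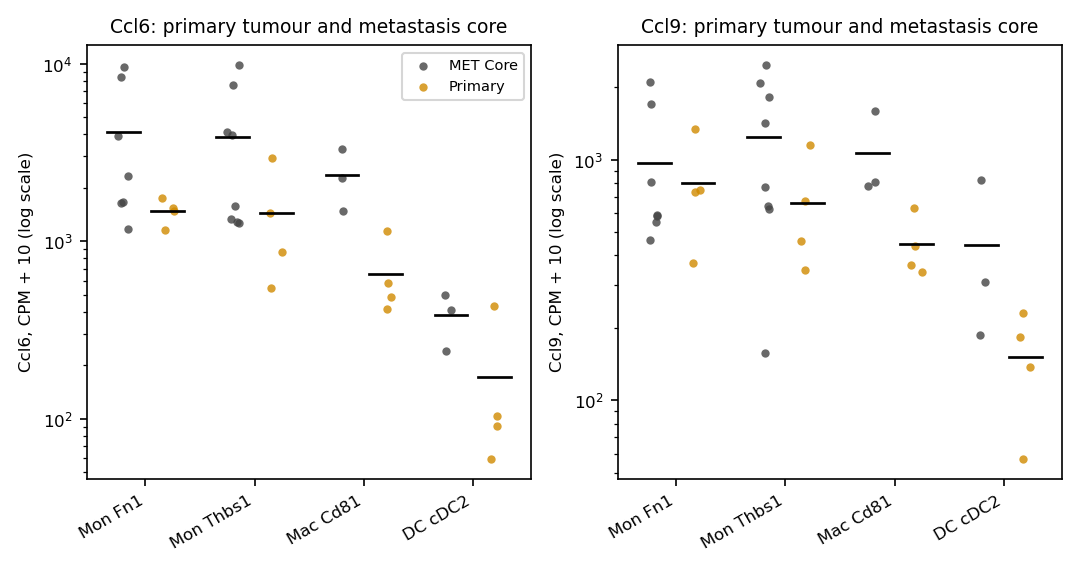
Ccl6 and Ccl9 in the 4 labels with at least 3 sums in both the primary tumor and the metastasis core, as CPM + 10 on a log axis. Points are single sums and bars the means. In Mac Cd81 all 4 primary tumor sums of Ccl6 (405 to 1136 CPM) lie below the 3 core sums (1479 to 3287 CPM), and in the other labels the Ccl6 groups overlap.

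Over all immune cells, Ccl6 was 657 ± 220 CPM in 4 primary tumors and 1890 ± 1519 CPM in 13 cores, a log2 difference of -1.14 (exact permutation p = 0.0908, adjusted 0.256). Core values ran from 445 to 5084 CPM and primary values from 417 to 881, so that the primary tumors lay at the low end of the core range. Ccl9 was 363 ± 101 and 523 ± 463 CPM. The difference of its mean log2 values was 0.04, opposite in sign to that of the mean CPM.

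Of the CC chemokine and receptor genes listed, the members among them, few passed the test. Over all genes, 0% to 1.51% were called in the label-wise fits of Pre-MET against Normal and 0% to 0.0427% against Relapse-free. Summed over the labels of a comparison, the list gave 14 tests of which 1 was called lower between Pre-MET and Normal and 20 of which 1 was lower between Pre-MET and Relapse-free. There was no call among 14 tests between MET and distal tissue and 10 between core and margin. Between primary tumor and core, where 0.59% to 8.25% of all genes were called, 1 of 33 tests was called higher and 3 lower, Ccl6 in Mac Cd81 among the latter. Ccl5, a chemokine typical of T and NK cells, fell in Mon Fn1 of Pre-MET lungs, with a log2 fold change of -3.08 against Normal (adjusted p = 0.010, edgeR) and -2.87 against Relapse-free (adjusted p = 0.039, edgeR). NK cells made up 17.4% of Normal, 14.9% of Relapse-free and 4.66% of Pre-MET cells, and mean Ccl5 was 29549 CPM in NK Ncr1 and 150 in Mon Fn1. NK markers in Mon Fn1 summed to 92.3 to 192 CPM in Normal, 0 to 228 in Relapse-free and at most 36.5 in Pre-MET lungs, and their part in the Ccl5 difference was not tested. In Mon Thbs1, Ccl2, the main CCR2 ligand, had a log2 fold change of -2.33 in the primary tumor (adjusted p = 0.011, edgeR), and Ccl4 one of -2.26 (adjusted p = 0.043). In Mac Cd81, Ccl8 rose by 6.25 on the log2 scale (adjusted p = 9.7e-04, edgeR). Ccl8 was named after its value was seen. Over the genes of the list tested, the median log2 fold change between primary tumor and core was -1.15 in Mon Thbs1 (0.04 over all genes), -0.83 in Mon Fn1 (0.06), -0.80 in cDC2 (0.25) and 0.25 in Mac Cd81 (0.31).

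Whether Ccl6 and Ccl9 varied together from sample to sample was examined in each label and tissue with at least 6 sums, 17 relations in all. In Mon Fn1 of distal normal tissue they did, with r = 0.936 and Spearman's rho = 0.929 over 13 mice (permutation p = 2.0e-05, the smallest that the resampling can give, adjusted p = 3.4e-04). Without the 2 sums farthest from the median of Ccl6, r was 0.896. Within the batch that held 7 of the 13 sums, r was 0.867, and with batch means removed it was 0.847. In Mon Fn1 of lesion-bearing tissue r was 0.587 over 13 mice (permutation, adjusted p = 0.237), and, with each sum given the batch of most of its cells, it was 0.668 with batch means removed, 0.011 in the batch with 5 sums and 0.988 in the batch with 4. In Mon Fn1 of the core r was 0.947 over 7 mice (exact permutation, adjusted p = 0.078), with mice 23 and 28 far above the other 5, and 0.722 without the 2 farthest sums. In Mon Fn1 of Relapse-free lungs the sign was the other one, with r = -0.143 and rho = -0.714 over 6 mice (exact permutation, adjusted p = 0.639 and 0.289), and r was -0.951 without the 2 farthest sums. In Mon Ace of distal tissue r was -0.485 over 8 mice (exact permutation, adjusted p = 0.347). Apart from Mon Fn1 of distal tissue, none of the 17 relations passed an adjusted p of 0.05.

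Neut PMN-MDSC was the neutrophil label whose Ccl9 mean stood well above the lymphocyte labels, and 1 sum made that mean. The 5 sums had 0, 0, 180, 129 and 2164 CPM. The highest was Relapse-free mouse 7, with 23 Ccl9 UMIs in 11 cells (95% exact Poisson interval 1372 to 3247 CPM, which covers counting error only). A single cell held 12 of these UMIs together with 24 UMIs of Mcpt8, which encodes a protease of basophils. Over the 139 cells of the label, 11 cells had a UMI of the genes Siglecf, Epx, Prg2, Mcpt8, Cpa3 or Ms4a2, markers of eosinophils, basophils or mast cells. They held 57 of 109 Ccl9 UMIs, and reached 5180 CPM of Ccl9 and 11815 CPM of Ccl6. The other 128 cells had 374 CPM of Ccl9 and 3903 CPM of Ccl6. Without the cells of that kind, the sum of mouse 7 had 1408 CPM of Ccl9 in 7 cells, still the highest of the 5. The part of other cell types in the label was not tested further.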

How the data were processed

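The deposited files hold raw UMI counts of 52634 genes in 384 wells for each of 148 plates. Per the methods of the study, the authors mapped reads to mm10 with HISAT, excluded reads with several positions, assigned reads to exons, discarded cells under 500 UMIs, and labelled the cells after clustering. The submitters' processing notes name bcl2fastq 2.15.0.4. The authors' counts were not normalized before deposit. The sort excluded doublets, and no doublet caller was run here.

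Of 56832 wells, 24020 carried a label. Erythrocytes, outliers and tumor cells (595 cells) were left out. Counts were summed by mouse, tissue and label, and sums under 10 cells were dropped (1758 of 13014 myeloid cells). Sample depth ran from 48306 to 2745794 UMIs, and intervals cover counting error only. Tests used edgeR 4.0.16 (TMM, filterByExpr, quasi-likelihood) on counts, 1 fit for each label with at least 3 sums per group, and permutation tests of log2(CPM + 1) for totals, with 100000 resamples where not exact. DESeq2 1.42.0 was an alternative. Fits ran in R 4.3.3. Sums and permutations ran in pandas 2.3.3 and scipy 1.17.1 under Python 3.11.15, with figures from matplotlib 3.10.9. The scripts were tested on simulated data.

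Replicates were mice. Of 63 samples, 7 had plates in more than 1 sequencing batch. Within-batch totals used the cells of that batch alone, and the batch term used the batch of most cells of a sum. Groups came from the sample labels. Tissues of the same mouse were paired by mouse in an alternative fit. In Mon Fn1, deviations of log2 CPM from the tissue mean were correlated over genes between tissues. Between core and margin, r was 0.21 to 0.50 for the same mouse and -0.45 to 0.18 for different mice. Between MET and distal tissue it was -0.05 to 0.61 for the same mouse (median 0.23) and -0.46 to 0.57 for different mice (median -0.03). Core plates of mouse 17 included a CD45 gate. One gene of the list is not reported here. The members and lists were chosen with earlier results of these data known. Named genes were Ccl6 and Ccl9 in every fit, the called genes among Ccl2, Ccl3, Ccl4, Ccl5, Ccl7, Ccl12, Ccr1, Ccr2 and Ccr3, and the 5 genes most like each member over labels with at least 3 sums, among genes reaching 50 CPM in a label. Alternatives were other normalization, no filter, cell and depth minima, a batch term, a replicate block, each cell's own CPM, another pseudocount, leaving out each replicate of a group with 2 to 5 sums or samples and, chosen after seeing the data, core mice 23 and 28 in turn. Label-wise fits against Relapse-free lungs were also run with only the Relapse-free plates of the CD31-negative CD45-positive gate.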

Additional observations from a re-analysis of the deposited data

Results flagged for a closer look

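Of 62 groups of 4 to 10 sums, 4 held a value far from the others, where chance flags about 1 in 20. In cDC2 of primary tumors, mouse 8 had 421 CPM of Ccl6 and the other 3 mice 49.4 to 93.7. This mouse was sequenced in another batch than the other 3. In Mac Gpnmb of lesion-bearing tissue, mouse 28 had 5538 CPM of Ccl6 and the others 1174 to 2835. In Mon Fn1 of the invasive margin, mouse 36 had 1380 CPM of Ccl9, from 31 UMIs in 11 cells, and the others 480 to 741. In Mon Fn1 of Relapse-free lungs, mouse 29 had 4917 CPM of Ccl6 in 12 cells and the others 1996 to 2876.

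Wells and labels outside the comparisons also held the genes. The 592 wells left without a cell held 17 Ccl6 UMIs among 8490 UMIs in all, or 2002 CPM. The label Erythrocytes had 1964 CPM of Ccl6. The label Outlier had 4331 CPM of Ccl6 and 675 CPM of Ccl9. None of 58 pairs of labels had every sample of one moving against every sample of the other.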

How the results depend on the processing

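Values are log2 differences. Over the label-wise results, 348 alternative values kept their direction and side of the threshold, 21 turned in sign, 7 lost the call and 2 gained one. Over the all-immune totals 56 kept it and 6 turned in sign.

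The call of Ccl6 in Mac Cd81 was lost with no filter on low counts (-0.76), and the comparison of primary tumor and core then held 0 calls, as it did with at least 20 cells per sum (0) and with the batch term (0). Mac Cd81 could not be fitted under those 2 settings or with cells of at least 1000 UMIs. Ccl6 in Mon Fn1 of that comparison passed with cells of at least 1000 UMIs (-2.11, adjusted p = 0.00785, edgeR). The cause was not tested.

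Signs turned mostly in small differences, but Ccl6 in Mon Thbs1 (primary against core) turned from -1.39 to 1.06 with the batch term. With cells of at least 1000 UMIs, Ccl9 in Mon Ace (Pre-MET against Normal) was -0.014, Ccl6 in Mon Fn1 (MET against distal) 0.00020 and all-immune Ccl9 (primary against core) -0.18. With no filter, Ccl9 in Mon Fn1 was -0.031 (MET against distal) and 0.027 (primary against core). With the batch term, Ccl9 in Mon Fn1 (MET against distal) was -0.14, Ccl6 in Neut Ifit3 0.013 and Ccl6 in Neut Lcn2 0.080. Ccl6 in Neut Lcn2 was 0.13 with at least 5 cells per sum and 0.31 with the replicate block, the paired fit by mouse, which changed no call of either gene. From each cell's own CPM, all-immune Ccl6 (Pre-MET against Normal) was 0.49 and Ccl9 (primary against core) -0.13. Without mouse 17, all-immune Ccl6 (core against margin) was 0.080.

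Leaving out 1 replicate at a time, in groups of 2 to 5, gave, for Pre-MET against Normal, -0.20 to 0.28 for Ccl9 in Mon Ace, -0.14 to 0.55 for Ccl9 in Mon Fn1, -0.63 to 0.22 for Ccl6 and -0.77 to 0.19 for Ccl9 in Mon MHC-II. Against Relapse-free, Ccl6 in Mon MHC-II ran from -0.76 to 0.0069. Ccl6 in Neut Ifit3 ran from -0.48 to 0.12. For primary against core, Ccl6 ran from -2.25 to -0.60 in cDC2 and -1.93 to -0.97 in Mac Cd81, Ccl9 in Mon Fn1 from -0.65 to 0.13 with core mice 23 and 28 also left out in turn, and all-immune Ccl9 from -0.075 to 0.25. For core against margin, Ccl9 in Mon Fn1 ran from -0.032 to 0.72 with the same core mice left out in turn. Without the cells holding eosinophil, basophil or mast cell UMIs, chosen after seeing the data, Ccl9 in the PMN-MDSC sum of mouse 7 was 1408 instead of 2164 CPM.

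Some batch, block and cell-minimum fits could not be run, having too few sums or mice. Sums were kept from 10 cells upward, and small differences between such sums are not detectable at this depth.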
